A study of Drosophila melanogaster with 54 samples.

Results

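Wnt genes encode the secreted ligands, and Frizzled genes the cell-surface receptors, of a signalling pathway that patterns most tissues of the Drosophila embryo. The members described here are 6 ligand genes (wntD, Wnt2, Wnt4, Wnt5, Wnt6 and Wnt10) and 3 receptor genes (fz, fz2 and fz3). They were chosen by name from the gene identifiers of the deposited count tables, and the rule used no measured value, although earlier results of these data were known when the set was drawn up. They make up 9 of the 17481 gene entries. The ligand gene wg belongs to the segment polarity genes and is given only where it adjoins a result.

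The study sequenced RNA of 54 whole Drosophila melanogaster embryos, 1 library per embryo, and its title concerns dosage compensation of the X chromosome. The labels give the stage, scored from morphology, and the stages are 4, 6, 8 and 12 with 5 embryos each, 5 and 10 with 9 each, and 13 and 15 with 8 each. No treatment, genotype, strain, sex, parent or age in hours is given in the labels, and a letter in the title names each embryo within its stage. P-values therefore measure the spread between these embryos only.

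Most Wnt proteins carry a lipid that lets them bind Frizzled receptors on nearby cells. In the canonical branch, a Frizzled and the co-receptor Arrow stop the breakdown of Armadillo, the fly beta-catenin, which then works with the DNA-binding protein Pangolin on target genes. Frizzled also belongs to the planar polarity complex that orients cells within a sheet, and some Wnt ligands act through other receptors such as Derailed, which steers axons. In the embryo, Wingless, the product of wg, is best known for maintaining segment borders, and Frizzled and Frizzled2 can each receive it.

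All 9 members are protein-coding genes, placed here by the Ensembl gene annotation of BDGP6, the assembly that the dm6 build names. Wnt4, wg, Wnt6 and Wnt10 lie in that order within 122 kb of chromosome arm 2L. Wnt4 (FBgn0010453) spans 7255419 to 7277171 on the minus strand, Wnt6 (FBgn0031902) 7333714 to 7352542 on the plus strand and Wnt10 (FBgn0031903) 7363379 to 7377528 on the plus strand. The gaps between neighbours are 29987, 17448 and 10836 bases, and 0 protein-coding genes lie in them. The other ligand genes lie alone. The gene wntD (FBgn0038134) lies at 13292052 to 13293198 on the minus strand of 3R, Wnt2 (FBgn0004360) at 9494166 to 9503188 on the plus strand of 2R, and Wnt5 (FBgn0010194) at 18501401 to 18505405 on the minus strand of X. Of the receptor genes, fz (FBgn0001085) lies at 14274343 to 14368639 on the plus strand of 3L, fz2 (FBgn0016797) at 19140975 to 19235373 on the minus strand of 3L, and fz3 (FBgn0027343) at 769945 to 784222 on the plus strand of X.

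Levels are given in CPM, the gene counts per 1000000 gene reads after TMM scaling, as the mean ± SD over the embryos of a stage. Gene counts per embryo ran from 1632448 to 12863155, with a median of 4713817, so that 1 CPM rests on about 5.01 reads at the median depth. Of the libraries, 46 kept the strand of the RNA and 8 did not, the latter being embryos A, B, F and G of stages 13 and 15. Reads of either strand were therefore counted alike. Between 99.7 and 99.9% of the reads of every member except Wnt10 were on its own strand in the directional libraries, against 93.6% for Wnt10 (103 of its reads against 7), whose exons overlap the antisense gene asRNA:CR44063. Changes are log2 fold changes ± SE from edgeR's quasi-likelihood fit over all 54 embryos, called at a Benjamini-Hochberg adjusted p under 0.05 across 9783 genes. Wnt10 had too few reads to pass the filter on low counts. Whole embryos were measured, so that fewer expressing cells and less RNA per cell cannot be told apart, and levels are relative to all gene RNA of the embryo.

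Maternal RNA, blastoderm and trachea markers followed the labelled stages, and the other lists did so only in part. The summed level of 4 maternal RNA markers was 3562 to 5715 CPM at stage 4 and at most 95.6 CPM in any later embryo except stage 10 embryo C, which had 283 CPM. Blastoderm markers peaked at stage 5, with 5545 to 9565 CPM against 201 to 254 CPM at stage 4, and gastrulation and mesoderm markers lay between 439 and 719 CPM from stage 5 to stage 8. Muscle and trachea markers were highest at stage 15, with 2115 to 4550 and 1735 to 2636 CPM. The latter range overlapped 1102 to 2021 CPM of trachea markers at stage 13. Neuron markers were highest at stage 13, with 1058 to 1438 CPM, which overlapped 887 to 1299 CPM at stage 15. Muscle markers already had 424 to 460 CPM at stage 4, and neuron markers 111 to 306 CPM at stage 5. Gut markers lay between 186 and 468 CPM from stage 5 on, and eggshell markers, which would come from maternal tissue, between 1.02 and 54.3 CPM throughout.

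The ligand gene wntD, which encodes a feedback inhibitor of the Toll and Dorsal pathway, appeared at stage 5, was high from stage 6 to stage 10 and was low again from stage 12. At stage 4, embryos B, C, D, G and H held 0.0663, 0, 0, 0.631 and 3.30 CPM, 24 reads in all. At stage 5 the 9 embryos ran from 5.97 to 26.0 CPM with a median of 14.0. All embryos of stage 5 lay above all of stage 4, among which embryo H stood apart with 18 of the 24 reads. The rise was 4.73 ± 0.61 (edgeR adjusted p = 4.69e-12), or 6.45 without embryo H. Summed CPM of maternal RNA markers was lowest in the same embryo, 3562 against 4033 to 5715 in the others, and that of blastoderm markers highest, 254 against 201 to 239, and their part in its wntD level was not tested.

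At stage 6, embryos B, C, D, G and H held 69.1, 47.4, 71.7, 62.9 and 45.7 CPM of wntD. At stage 8 they held 84.2, 82.2, 68.8, 61.6 and 87.1 CPM. These stages overlapped, and both lay wholly above stage 5. The rise from stage 5 to stage 6 was 1.91 ± 0.32 (edgeR adjusted p = 4.57e-07), and that from stage 6 to stage 8, 0.37, was not called (adjusted p = 0.512). Stage 10 gave the highest mean of wntD, 114 ± 37.6 CPM, with a lowest embryo of 62.9, a median of 111 and a highest of 171. Stages 8 and 10 overlapped, and their difference of 0.57 was not called (edgeR adjusted p = 0.11).

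The drop of wntD came between stage 10 and stage 12. At stage 12, embryos B, C, D, G and H held 14.3, 5.97, 5.84, 0.912 and 5.00 CPM, all below the lowest embryo of stage 10. The level fell by 4.14 ± 0.36 (edgeR adjusted p = 8.83e-13), or by 4.81 without stage 12 embryo B, the highest of its stage. It fell by a further 4.13 ± 0.74 to stage 13 (adjusted p = 3.8e-08), or by 3.46 without that embryo. The 8 embryos of stage 13 had 17 reads in all, 0.355 ± 0.194 CPM, and those of stage 15 had 11 reads, 0.229 ± 0.149 CPM, which overlapped them.

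Wnt2, which is needed for the male gonad and for tracheal development, had 0 reads in all 5 embryos of stage 4. It had 29 reads over the 9 embryos of stage 5, with 0 in 2 of them, which makes its CPM at least 12.8-fold higher than 3 reads over stage 4. At stage 6, embryos B, C, D, G and H held 3.26, 2.84, 2.85, 2.14 and 1.11 CPM, and at stage 8 they held 8.62, 12.7, 9.75, 8.85 and 10.9 CPM. Every embryo of stage 8 lay above every embryo of stage 6. The rises were 1.53 ± 0.47 from stage 5 to stage 6 (edgeR adjusted p = 0.00342), 1.99 ± 0.37 to stage 8 (adjusted p = 3.41e-05) and 2.22 ± 0.25 to stage 10 (adjusted p = 9.37e-10).

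At stage 10 the embryos differed widely in Wnt2, from 21.5 to 81.9 CPM with a median of 35.5. Embryos B, C, F, G and H held 28.3, 29.1, 35.5, 31.8 and 21.5 CPM, and embryos D, E, I and J held 60.0, 72.1, 69.9 and 81.9 CPM, and 0 embryos lay between 35.5 and 60.0 CPM. The 4 embryos highest in Wnt2 were also the 4 lowest in gastrulation and in blastoderm markers. The summed CPM of 4 gastrulation and mesoderm markers (twi, sna, fog and T48) was 383, 380.3, 375, 361 and 358 in embryos B, C, F, G and H and 266, 255, 234 and 246 in D, E, I and J. Trachea markers (trh, btl, vvl, serp and verm) summed to 599.8, 521 and 596 CPM in E, I and J and to 228 to 288 CPM in the other 6, D included. Blastoderm markers summed to 28.6 to 54.2 CPM in B, C, F, G and H and to 17.2 to 21.9 CPM in D, E, I and J. Maternal RNA markers overlapped, with 14.6 to 283 CPM in the former and 10.7 to 15.8 CPM in the latter. The 2 embryos lowest in wntD, E with 63.4 CPM and I with 62.9 CPM, were among the 4 with high Wnt2, whereas D and J, with 108 and 119.9 CPM, lay within the range of the rest. The part of the marker differences in the spread of Wnt2 was not tested, and the labels give no finer stage.

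**Figure D1:**
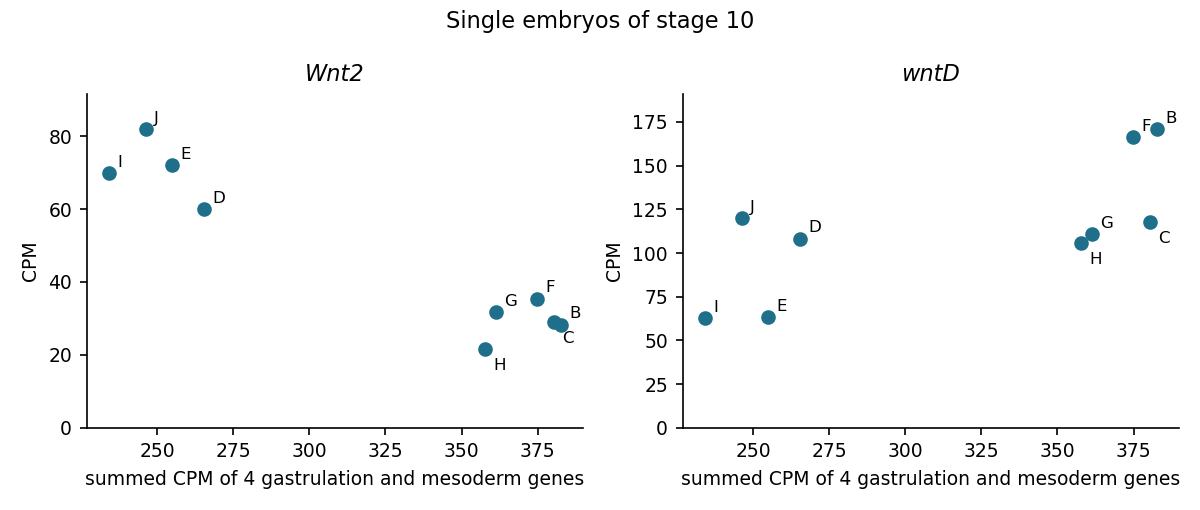
CPM of Wnt2 (left) and wntD (right) against the summed CPM of twi, sna, fog and T48 in the 9 embryos of stage 10, each point an embryo with its letter. The 4 embryos with marker sums from 234 to 266 CPM have 60.0 to 81.9 CPM of Wnt2, and the 5 with sums from 358 to 383 have 21.5 to 35.5 CPM.

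At stage 12, embryos B, C, D, G and H held 54.2, 47.2, 49.1, 40.3 and 41.0 CPM of Wnt2, all within the gap between 35.5 and 60.0 CPM at stage 10. Stage 12 did not differ from stage 10 as a whole beyond its spread (log2 change -0.03, edgeR adjusted p = 0.93), and the sign turned without embryo D, E, I or J of stage 10 or G or H of stage 12. Wnt2 then fell by 1.43 ± 0.24 to stage 13 (adjusted p = 1.03e-06), where the 8 embryos ran from 12.7 to 19.9 CPM and lay wholly below stage 12. Stage 15, with 10.6 to 21.0 CPM, overlapped stage 13.

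Wnt5, the ligand of Derailed in axon guidance, was the only ligand of the 6 with over 10 CPM at stage 4. Embryos B, C, D, G and H of stage 4 held 41.1, 41.4, 42.4, 41.1 and 37.3 CPM, a narrow spread. The rise to stage 5, where embryos ran from 42.7 to 82.4 CPM with a median of 48.6, was 0.44 ± 0.12 (edgeR adjusted p = 0.000826), which is below the median of all genes in that comparison, 0.72. It rose by 0.38 ± 0.12 to stage 6 (adjusted p = 0.00473) and by 0.46 ± 0.13 to stage 8 (adjusted p = 0.00904). The call at stage 8 was lost without stage 8 embryo D, with a change of 0.35 (adjusted p = 0.0617).

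The largest step of Wnt5 between neighbouring stages, 0.95 ± 0.11 (edgeR adjusted p = 1.63e-09), led from 98.6 ± 21.8 CPM at stage 8 to 190.3 ± 24.5 CPM at stage 10. All 9 embryos of stage 10 lay above all of stage 8, with a lowest of 163 against a highest of 127 CPM. The peak was at stage 12, where embryos B, C, D, G and H held 238, 235, 235, 253 and 229 CPM, 0.32 ± 0.11 above stage 10 (adjusted p = 0.0139). Levels then were 211 ± 9.44 CPM at stage 13 and 186 ± 19.3 CPM at stage 15, and neither step was called (adjusted p = 0.186 and 0.123).

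Wnt4, a ligand with roles in motor axon targeting and in the ovary, climbed at every step of the series. It had 1 read at stage 4, in embryo B, and 12 reads at stage 5, a CPM ratio of 15.9 with a 95% counting interval from 2.35 to 679. At stage 6, embryos B, C, D, G and H held 1.09, 1.70, 0.712, 1.34 and 0.554 CPM, and at stage 8 they held 3.58, 7.28, 3.70, 4.42 and 5.59 CPM. From stage 6 on, neighbouring stages did not overlap until stages 13 and 15. At stage 10 embryos ran from 19.2 to 43.4 CPM with a median of 28.5, and at stage 12 the 5 held 87.0, 104, 80.7, 118 and 119.8 CPM.

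The steps of Wnt4 were 1.53 ± 0.53 to stage 6 (edgeR adjusted p = 0.00767), 2.13 ± 0.36 to stage 8 (adjusted p = 2.46e-06), 2.60 ± 0.20 to stage 10 (adjusted p = 7.1e-16) and 1.81 ± 0.15 to stage 12 (adjusted p = 7.34e-15). Stage 13 ran from 122 to 153 CPM with a median of 137, and stage 15 from 145 to 262 CPM with a median of 203. The last steps were small, 0.42 ± 0.15 to stage 13 (adjusted p = 0.0141) and 0.56 ± 0.13 to stage 15 (adjusted p = 0.000179). In directional libraries alone they were 0.40 and 0.39 and not called (adjusted p = 0.0701 and 0.102), and within the non-directional libraries the step to stage 15 was 0.67 (adjusted p = 0.000833). Without stage 12 embryo D the step to stage 13 was 0.35 and not called (adjusted p = 0.0616).

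Wnt6, which is needed for the maxillary palp, was the latest of the tested ligands to appear. It had 1 read at stage 4, 9 reads at stage 5 and 0 reads at stages 6 and 8, where 3 reads over the stage would be 0.134 and 0.127 CPM. Stage 10 had 9 reads, 3 of them in embryo E. These low counts gave calls between stages 4 and 10 that rest on 9 reads or fewer per stage. At stage 12, embryos B, C, D, G and H held 8.12, 10.7, 5.62, 13.4 and 17.1 CPM, all above the highest embryo of stage 10, 1.13 CPM. The rise was 5.37 ± 0.51 (edgeR adjusted p = 8.4e-16).

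Wnt6 was highest at stage 13, where embryos ran from 11.7 to 22.6 CPM with a median of 18.4, 0.71 ± 0.25 above stage 12 (edgeR adjusted p = 0.0169). That call was lost without stage 12 embryo B (0.61, adjusted p = 0.0596) or D (0.54, adjusted p = 0.0823). At stage 15 embryos ran from 8.54 to 12.0 CPM with a median of 11.2, overlapping stage 13 only at its lowest embryo. The level fell by 0.78 ± 0.22 (adjusted p = 0.00231).

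Wnt10, whose role in the fly is little described, stayed close to the limit of detection. The stages from 4 to 12 had 0, 2, 2, 1, 2 and 5 reads in order. Stage 13 had 54 reads, from 0.369 to 1.97 CPM with a median of 1.07, and was the only stage with a read in every embryo. Stage 15 had 84 reads, with 0 in embryo F, a median of 1.32 and 4.14 CPM in embryo C. Stage 13 exceeded stage 12 by 0.77 in mean log2(CPM + 1), with p = 0.00777 in a two-sided exact permutation test and 0.0544 after Benjamini-Hochberg adjustment over the 7 neighbouring comparisons. With the low-count filter removed, edgeR gave 2.27 ± 0.84 (adjusted p = 0.00988). Stages 13 and 15 overlapped (exact permutation p = 0.289).

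Along the 2L cluster, the neighbours reached reads in every embryo of a stage at different times. The first such stages were 5 for wg, 6 for Wnt4, 12 for Wnt6 and 13 for Wnt10. This order is also their order along the chromosome except that wg, between Wnt4 and Wnt6, came before Wnt4. Reads in every embryo depend on level and depth, so these stages are not times of onset, and the order was not tested. Wnt6 had reads in 6 of the 9 embryos of stage 5, and Wnt10 had 0 in embryo F of stage 15. The level of wg was highest at stage 8, 207 ± 13.1 CPM, and fell to 62.0 ± 8.42 CPM at stage 15, while Wnt4 went from 4.92 ± 1.54 to 202 ± 35.4 CPM over the same stages.

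**Figure D2:**
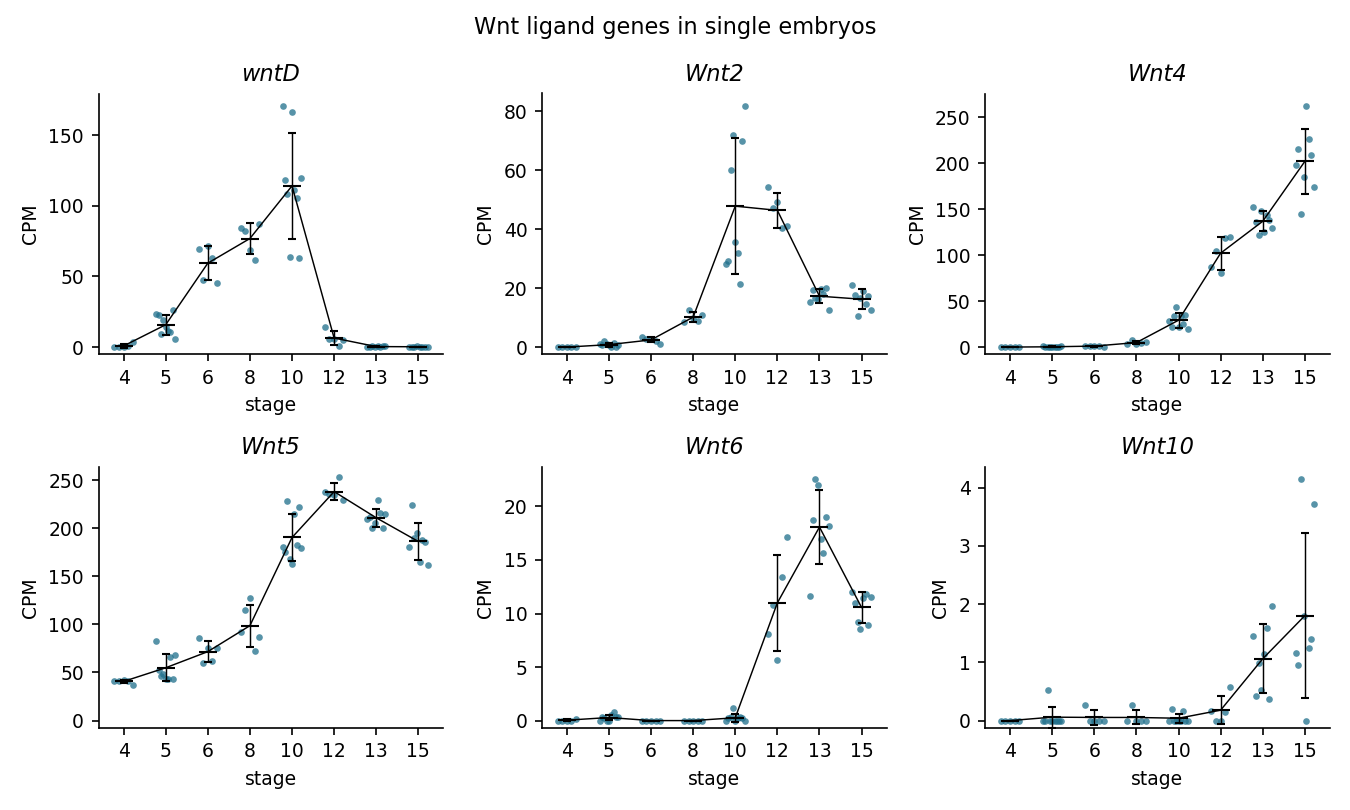
CPM of the 6 ligand genes by stage, each point an embryo and the bars the mean ± SD, on a linear axis of its own per gene. The mean of wntD is highest at stage 10 (114 CPM), of Wnt5 at stage 12 (238 CPM), of Wnt6 at stage 13 (18.1 CPM) and of Wnt4 at stage 15 (202 CPM), and Wnt2 has a split set of embryos at stage 10.

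Divided by exon length, the levels show which of the 6 ligand RNAs was most abundant at each stage. The exon length is that of all annotated isoforms together, and wg is not among the 6. Wnt5 made up 94.0 ± 10.3% of the summed CPM per kb of the 6 ligands at stage 4. At stage 5, Wnt5 held 50.2 ± 12.7% and wntD 47.5 ± 13.8%, and wntD came first in 4 embryos and Wnt5 in 5. The ligand wntD came first in all embryos of stages 6 and 8, with 72.5 ± 3.73% and 68.6 ± 4.66%, and in 8 of 9 embryos of stage 10, with 55.0 ± 11.9%. Its share at stage 12 was 4.62 ± 3.37%. Outside the 6, wg had 56.0 ± 6.65 and 70.9 ± 4.50 CPM per kb at stages 6 and 8. The values of wntD there were 51.7 ± 10.6 and 67.0 ± 9.61.

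From stage 12 the per-length order of ligands changed again. Wnt5 held 49.6 ± 2.48% at stage 12 and 48.7 ± 1.96% at stage 13, with Wnt4 next at 25.2 ± 4.00% and 37.6 ± 2.42%. At stage 15 Wnt4 held 50.4 ± 4.73% and came first in 7 of 8 embryos, with Wnt5 at 39.5 ± 4.62%. Wnt2 had its highest share at stage 12, 17.3 ± 2.32%. Wnt6 and Wnt10 together never made up a large share, with stage means of at most 5.88% for Wnt6 and 0.692% for Wnt10. The summed CPM per kb of the 6 ligands was lowest at stage 4, 10.9 ± 0.799, and highest at stage 10, 177 ± 25.5.

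**Figure D3:**
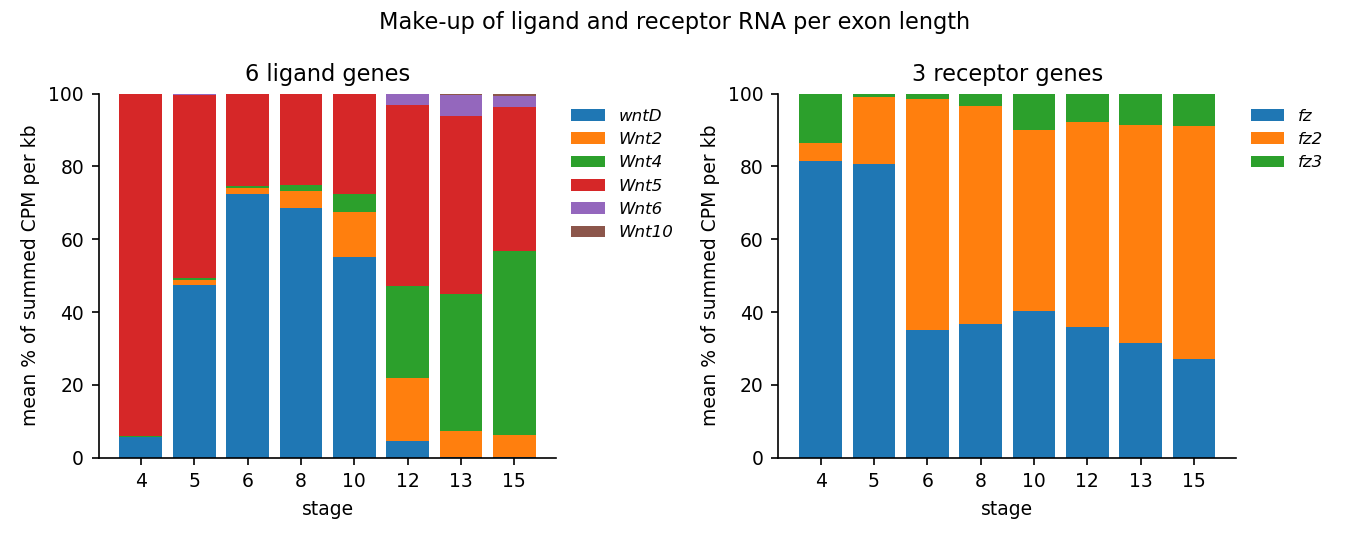
Stacked bars of the mean share of each gene in the summed CPM per kb of the 6 ligands (left) and of the 3 receptors (right) at each stage, in percent. Among the 6 ligands Wnt5 leads at stage 4 (94.0%), wntD at stage 6 (72.5%) and Wnt4 at stage 15 (50.4%). Among the 3 receptors fz leads at stages 4 and 5 (81.6 and 80.8%) and fz2 from stage 6 on. The shares leave out wg and fz4.

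The receptor gene fz, which serves both Wingless reception and planar polarity, varied least of the 9 members. Its stage means lay between 146 ± 17.2 CPM at stage 6 and 246 ± 44.6 CPM at stage 5. At stage 4, embryos B, C, D, G and H held 139, 178, 163, 183 and 168 CPM. At stage 5 embryos ran from 167 to 293 CPM with a median of 256, overlapping stage 4. The rise of 0.56 ± 0.10 (edgeR adjusted p = 1.01e-06) was below the median of all genes, 0.72.

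At stage 6 fz fell by 0.75 ± 0.10 (edgeR adjusted p = 6.93e-09), and its 5 embryos, with 126, 163, 151, 161 and 131 CPM, all lay below the lowest embryo of stage 5. The steps to stage 8, 0.37 ± 0.11 (adjusted p = 0.014), and to stage 12, 0.34 ± 0.10 (adjusted p = 0.00292), were small rises. The former call was lost on leaving out embryo B or H of stage 6, or embryo C of stage 8, with changes of 0.32, 0.33 and 0.31. The level fell by 0.40 ± 0.09 from stage 13 to stage 15 (adjusted p = 9.69e-05). Stage 15 was level with stage 4, 169 ± 15.0 against 166 ± 16.9 CPM (0.02, adjusted p = 0.865), although it was 0.26 higher with DESeq2 size factors (adjusted p = 0.0197), which moved the median of all genes from 0.46 to 0.70.

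The gene fz2, which encodes a high-affinity Wingless receptor, changed from the least abundant of the 3 member receptor RNAs per length to the most abundant of them. At stage 4, embryos B, C, D, G and H held 14.7, 21.7, 19.1, 25.6 and 14.9 CPM, and at stage 6 they held 532, 531, 509, 466.2 and 529 CPM. Stage 5 lay between with no overlap on either side, from 60.3 to 134 CPM with a median of 107. The rises were 2.45 ± 0.12 to stage 5 (edgeR adjusted p = 2.61e-23) and 2.30 ± 0.11 to stage 6 (adjusted p = 4.05e-24).

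Stage 5 embryos H and J had the lowest fz2, 66.6 and 60.3 CPM, and the lowest fz3, 1.11 and 1.19 CPM. The same embryos had the highest sums of blastoderm markers, 8431 and 9565 against 5545 to 7530 CPM in the others, and of maternal RNA markers, 95.6 and 88.6 against 44.4 to 71.2 CPM. They also had the lowest sums of neuron markers, most of it elav, 111 and 130.4 against 164 to 306 CPM. The part of these differences in the fz2 and fz3 levels was not tested.

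At stage 8, embryos B, C, D, G and H held 521, 609, 669, 613 and 567 CPM of fz2, overlapping stage 6 (0.21, edgeR adjusted p = 0.259). It fell by 0.45 ± 0.11 to stage 10 (adjusted p = 0.000555), where embryos ran from 391 to 538 CPM with a median of 421. It rose by 0.66 ± 0.11 to stage 12 (adjusted p = 1.3e-06), where they held 642, 712, 648, 741 and 710.4 CPM, all above stage 10. The highest stage mean was 816 ± 38.6 CPM at stage 13, 0.24 above stage 12 and not called (adjusted p = 0.0679). With DESeq2 the same step was 0.27 and called (adjusted p = 0.0394), as it was in edgeR without stage 5 embryo H or J (adjusted p = 0.0458 and 0.0359). At stage 15 the level was 775 ± 53.0 CPM.

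The gene fz3, a target of Wingless signalling whose product attenuates it, dipped at stage 5 and then climbed. At stage 4, embryos B, C, D, G and H held 25.6, 31.4, 30.7, 27.2 and 20.7 CPM. At stage 5 embryos ran from 1.11 to 5.93 CPM with a median of 2.78, all below stage 4. The level fell by 3.09 ± 0.24 (edgeR adjusted p = 1.81e-18). Only fz3 among the 8 tested members was lower at stage 5 than at stage 4.

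At stage 6 the embryos held 7.19, 10.5, 5.70, 4.55 and 5.26 CPM of fz3, and at stage 8 they held 14.5, 22.7, 23.6, 8.51 and 15.4 CPM. These stages overlapped at stage 8 embryo G. The level rose by 1.07 ± 0.27 to stage 6 (edgeR adjusted p = 0.000563), by 1.36 ± 0.25 to stage 8 (adjusted p = 5.15e-05) and by 1.36 ± 0.20 to stage 10 (adjusted p = 1.14e-07). From stage 10 on, means of 43.7 ± 10.1, 48.6 ± 9.03, 60.0 ± 6.98 and 53.2 ± 6.98 CPM overlapped, and no step was called (adjusted p = 0.525, 0.166 and 0.373). Stage 15 was 0.97 ± 0.18 above stage 4 (adjusted p = 7.03e-06).

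**Figure D4:**
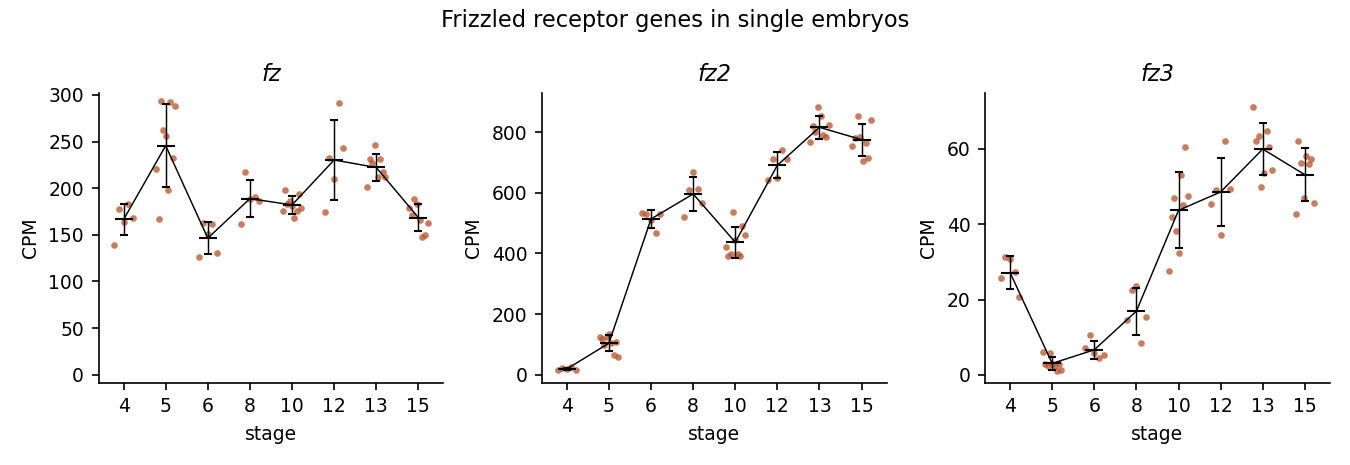
CPM of fz, fz2 and fz3 by stage, each point an embryo and the bars the mean ± SD, on a linear axis of its own per gene. Stage means of fz lie between 146 and 246 CPM, fz2 goes from 19.2 CPM at stage 4 to 816 CPM at stage 13, and fz3 drops from 27.1 to 3.03 CPM between stages 4 and 5 before it climbs to 60.0 CPM.

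The ratio of fz2 to fz per exon length turned over between stages 5 and 6. The fz RNA exceeded fz2 by a mean of 17.2-fold at stage 4 and 4.65-fold at stage 5, in all 14 embryos of those stages, and fz2 exceeded fz by 1.81-fold at stage 6 and in all 40 embryos from there on. The log2 ratio was -4.10 ± 0.25 at stage 4, -2.22 ± 0.60 at stage 5 and 0.86 ± 0.23 at stage 6. In two-sided exact permutation tests, adjusted over 7 neighbouring comparisons, both steps had p = 0.00117, with an unadjusted p of 0.0005, the smallest possible. The ratio did not differ between stages 6 and 8 beyond its spread (exact permutation p = 0.222).

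After stage 8 the ratio of fz2 to fz came nearer to equality and then widened. It was 0.40 lower at stage 10 than at stage 8 on the log2 scale, a mean of 1.23-fold (exact permutation p = 0.00175 adjusted). It rose to 0.64 ± 0.19 at stage 12 (p = 0.0042), 0.92 ± 0.08 at stage 13 (p = 0.00544) and 1.24 ± 0.12 at stage 15 (p = 0.00109), in exact permutation tests adjusted in the same family. Stage 15 stood at 2.37-fold, with all its embryos above those of stage 13. In shares of the 3 receptors, fz2 held 4.79 ± 0.752% at stage 4 and 64.1 ± 1.74% at stage 15. At the same stages fz held 81.6 ± 2.22% and 27.1 ± 1.68%, and fz3 13.7 ± 1.98% and 8.79 ± 1.32%. The Frizzled gene fz4 is not a member and is left out of these shares. At stage 4 it had 51.4 ± 4.41 CPM per kb, against 43.6 ± 4.43 for fz.

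**Figure D5:**
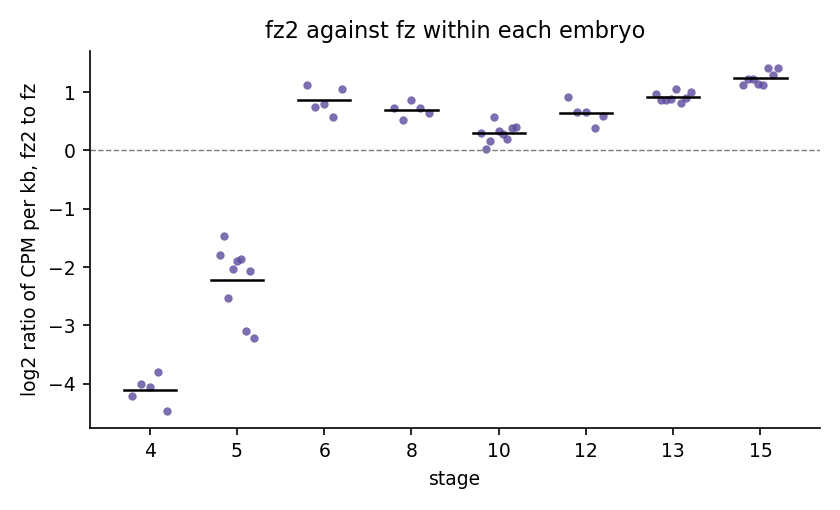
Log2 ratio of fz2 to fz in CPM per kb of exon, by stage, each point an embryo and each line a stage mean, with the dashed line at equal levels. Stages 4 and 5 lie below the line (means of -4.10 and -2.22) and every embryo from stage 6 on lies above it, with a mean of 1.24 at stage 15.

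Counted over the 8 tested members, most moved at the early steps. Between stages 4 and 5, 7 were called higher and 1 lower, against a background of 82.7% of all genes called in either direction and 52.1% called higher. Their median change was 2.55 against 0.72 over all genes. Wnt2, Wnt4 and Wnt6 had 0, 1 and 1 reads at stage 4 and passed the low-count filter through later stages. In practice they could only be called higher, and the median of the members includes them. Between stages 5 and 6, 6 were higher and 2 lower (fz and Wnt6), where 28% of all genes were called higher and 21.5% lower. The median of the members was 1.30 against 0.04, and the lower call of Wnt6 rests on 0 against 9 reads. Between stages 6 and 8, 5 were higher and 0 lower, where 9.8% of all genes were called higher and 8.65% lower, and their median was 0.41 against 0.00.

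Between stages 8 and 10, 5 members were called higher and 1, fz2, lower, where 50.5% of all genes were called. The median of the members was 1.15 against 0.03, and the higher call of Wnt6 rests on 9 against 0 reads. From stage 10 to stage 12, 5 were higher and wntD lower, where 47.9% were called. From stage 12 to stage 13, Wnt4 and Wnt6 were higher and wntD and Wnt2 lower, where 56% were called. The count of 4 fell to 2 without stage 12 embryo D. From stage 13 to stage 15, Wnt4 was higher and Wnt6 and fz lower, 3 of 8 where 55.9% of all genes were called. Across the series, from stage 4 to stage 15, 6 members were higher and 0 lower, with wntD and fz not called. The background was 52.8% of all genes called higher and 35.7% lower, 88.4% in all. Of the 6, Wnt2, Wnt4 and Wnt6 had 0, 1 and 1 reads at stage 4 and passed the low-count filter through later stages. In practice they could only be called higher. Over all 8 stages together, 8 of 8 differed, where 99.7% of all genes did.

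The other genes of the pathway, 32 genes in 5 lists, all passed the low-count filter, which was applied once over all stages. At stage 5 against stage 4, 23 were called higher and 5 lower, where 52.1% of all genes were called higher and 30.6% lower. Some of the 32, among them drl, nkd and Notum, had next to no reads at stage 4 and passed the filter through later stages. In practice these could only be called higher, and the counts and medians include them. Among 8 further receptors and co-receptors 6 rose and 1 fell. The receptor gene drl, for Derailed, went from 2 reads at stage 4 to 29.4 ± 7.54 CPM at stage 5, and fz4, which encodes the Frizzled that receives WntD, fell by 4.14 ± 0.12 from 202 ± 17.3 to 11.3 ± 3.59 CPM (edgeR adjusted p = 2.53e-35). Of the 10 cytoplasmic genes 8 rose and 2 fell, with nkd, an antagonist of Wingless signalling, up from 0.111 ± 0.108 to 382 ± 77.0 CPM and Apc, of the complex that destroys Armadillo, down by 1.99 ± 0.13 (adjusted p = 1.06e-20). All 5 nuclear effectors rose, with pan, for Pangolin, by 4.56 ± 0.12 (adjusted p = 1.2e-32). The median change was 0.91 in the cytoplasmic list and 1.29 in the nuclear list, against 0.72 over all genes.

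The secreted Wnt deacylase Notum, which removes the lipid from Wnt proteins, had the lowest or the highest called change of its list of 5 in 7 of 8 comparisons. It had 0.0267 ± 0.0598 CPM at stage 4 and 80.2 ± 18.2 CPM at stage 5. It fell to 20.5 ± 8.74 CPM at stage 6 (edgeR adjusted p = 7.01e-13) and rose by 1.90 ± 0.21 to stage 8 (adjusted p = 7.86e-10) and by 1.49 ± 0.17 to stage 10 (adjusted p = 5.59e-10), its highest stage with 209.6 ± 31.2 CPM. It then fell at each step, by 0.62 ± 0.17, 0.58 ± 0.17 and 1.11 ± 0.15 (adjusted p = 0.00197, 0.00286 and 1.66e-08). The glypican gene dally, whose product holds Wnt ligands at the cell surface, rose by 3.78 ± 0.20 from stage 5 to stage 6 (adjusted p = 2.04e-24).

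Over the middle steps the lists moved both ways. Of the 32 genes, 15 were higher and 11 lower at stage 6 against stage 5, where 28% of all genes were higher and 21.5% lower. Among them were dsh, for the adaptor Dishevelled, lower by 1.27 ± 0.10 (log2 change -1.27, edgeR adjusted p = 1.15e-15) and pygo, for a nuclear partner of Armadillo, at -1.84 ± 0.07 (adjusted p = 1.69e-26). At stage 8 against stage 6, 7 were higher and 5 lower, beside 9.8 and 8.65% of all genes. At stage 10 against stage 8, 13 were higher and 11 lower, beside 25.6 and 24.9% of all genes. The receptor gene dnt, a relative of drl, was at -0.84 ± 0.07 (adjusted p = 3.54e-15) and Drl-2, of the same family, at 2.41 ± 0.48 (adjusted p = 7.35e-06).

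Of the 4 planar polarity core genes, partners of fz in orienting cells, stan, pk and Vang rose from stage 10 to stage 12 and dgo, for Diego, did not (-0.26, not called). Of these, dgo was called lower at stage 13 against stage 12, with -0.39 ± 0.15 (edgeR adjusted p = 0.0221). Flamingo, encoded by stan, had a mean of 0.482 ± 0.312 CPM at stage 8. Its level was 22.7 ± 19.2 CPM at stage 10 and went on to 410 ± 102 CPM at stage 12 and to 1044 ± 63.6 CPM in stage 13 embryos. Its rise to stage 10 was 5.48 ± 0.99 (edgeR adjusted p = 9.24e-11). From stage 10 to stage 12 the changes were, for pk, which encodes Prickle, 4.58 ± 0.40 (adjusted p = 8.17e-16) and for Vang 1.01 ± 0.09 (adjusted p = 3.06e-14). The change of fz over that step was 0.34.

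Of the 32 pathway genes 12 were higher and 7 lower at stage 12 against stage 10. At the last steps more fell than rose, with 8 higher and 13 lower at stage 13 against stage 12, and 4 higher and 17 lower at stage 15 against stage 13. Background shares called higher and lower were 24.5 and 23.4%, 31 and 25%, and 28.8 and 27.1% in the same order. The Armadillo-destruction genes parted, since from stage 12 to stage 13 Apc rose by 1.57 ± 0.13 (edgeR adjusted p = 3.93e-14) and Apc2 was at -1.01 ± 0.09 (adjusted p = 6.09e-14). The receptor gene Ror, a Wnt-binding kinase of neurons, rose by 1.73 ± 0.24 to stage 12 (adjusted p = 1.26e-08) and by 1.31 ± 0.21 to stage 13 (adjusted p = 1.03e-06). Neuron markers summed to 551 to 1052 CPM at stage 12 and 1058 to 1438 CPM at stage 13, and their part in these changes was not tested.

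The members differed in which genes followed the same course over the 54 embryos. The measure was Pearson's r of log2(CPM + 1), given as a description, because all points share stage, library and depth. The 3 most alike genes were CG31368 (0.96), CG13784 (0.95) and Ctl1 (0.94) for wntD. They were Ect3 (0.96), CG12643 (0.96) and bsk (0.95) for Wnt2, and ds (0.98), Cad99C (0.97) and scrt (0.96) for Wnt5. Of the 2L cluster, Wnt4 was closest to ct (0.99), an entry with no symbol, FBgn0003888 (0.99), and CG30460 (0.99). Wnt6 was closest to Hey (0.98), Ser (0.98) and CG5849 (0.98), and Wnt10 to dsf (0.92), CG10348 (0.90) and CG42369 (0.90).

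Among receptors, fz2 was closest to grn (0.99), CG45263 (0.99) and side-V (0.98), and fz3 to stx (0.97), deltaCOP (0.97) and REPTOR (0.96). The closest genes to fz, which varied little, were Gbs-70E (0.71), gish (0.70) and D19B (0.69). By Spearman's rho in place of Pearson's r, 2 of these 3 genes remained for fz, 1 for wntD, 1 for Wnt2 and 0 for the other members. Between members, the highest r over the 54 embryos were 0.93 for Wnt4 with Wnt5 and 0.93 for Wnt2 with Wnt5. The lowest was -0.73 for wntD with Wnt6.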

How the data were processed

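RNA-seq was measured in 54 single embryos of 8 stages. Per the labels' protocols, hand-picked embryos were lysed with a synthetic spike-in mix, ribosomal RNA was depleted and libraries were read in paired-end mode. The authors deposited 1 table per embryo of raw read counts per gene, not normalized, with a column without regard to strand and a column for each strand. Reads were aligned with STAR 2.5.3a to dm6, per the submitters' processing notes. Which gene annotation the authors counted on is, for these tables, not given in the sources used here. Symbols and exon lengths were added from the Ensembl annotation for 17343 of the 17481 entries. Summary entries were left out, and reads assigned to no gene were 0.298 to 10.6% of the reads in a gene, in several genes or in none. That total leaves out unmapped reads, which were the larger part. With unmapped reads added to it, reads in a gene were 13.1 to 26.5% of the total. Embryos of stage 4 had 20.5 to 26.5%, and later embryos at most 20.1%. The spike-in mix was not used here.

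Counts without regard to strand entered edgeR 4.0.16 in R 4.3.3, with a mean per stage in a single quasi-likelihood fit, TMM scaling and the default low-count filter, which kept 9783 genes and 8 of the 9 members. The fit was tested on simulated data. Contrasts set each stage against the one before it and stage 15 against stage 4. Adjusted p-values are two-sided Benjamini-Hochberg values over the genes tested. Exact permutation tests served for the ratio of fz2 to fz and for log2(CPM + 1) of Wnt10. Counting intervals cover 95%, and folds against 0 reads use 3 reads over the stage, and both cover counting error only. Chi-square tests of the counts of 168 same-stage pairs gave at least 3.93 per degree of freedom, so that every library counted as its own replicate.

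The members, the pathway and marker lists and the tests were chosen with earlier results of these data known. All members are named, with the 3 genes most like each. Of each pathway list, genes could be named only if they had the lowest or highest called change in a comparison, and a part of these is named. The marker lists cover maternal RNA, blastoderm, gastrulation and mesoderm, neurons, muscle, trachea, gut and eggshell. Alternatives were DESeq2 size factors, the DESeq2 1.42.0 test, no low-count filter, counts of the opposite strand in directional libraries, directional libraries alone, the title letter as a replicate block, plain library sizes for levels, Spearman's rho for likeness, and each embryo left out in turn. A fit within the non-directional libraries and 1 with library kind as a term were chosen after seeing the data.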

Additional observations from a re-analysis of the deposited data

Results flagged for a closer look

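There were 72 sets of 1 gene and 1 stage with 5 to 9 embryos. In each, the gap from the highest or lowest embryo to the nearest one was set against the whole range, and 9 stood apart. Chance flags about 1 set in 20, but this rate does not apply to sets in which all embryos but 1 have 0 reads, since these are always flagged, and it was not set against the 9. At stage 4, embryo H was apart from the other 4 in 3 ligand genes. It held 3.30 CPM of wntD, 18 reads, where the others had at most 0.631 CPM. It held 37.3 CPM of Wnt5, the lowest, against 41.1 to 42.4 CPM, and 0.184 CPM of Wnt6, a single read. Embryo B of the same stage held 0.0663 CPM of Wnt4, also a single read.

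Other embryos stood apart on 1 to 3 reads. Wnt6 was at 1.13 CPM in stage 10 embryo E, from 3 reads. Wnt10 was at 0.533 CPM in stage 5 embryo D and 0.271 CPM in stage 6 embryo B, from 2 reads each. It was at 0.27 CPM in stage 8 embryo C, from 1 read, and at 0.577 CPM in stage 12 embryo H, from 3 reads.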

How the results depend on the processing

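The counts of members called kept within 1.5 times under all alternatives with 1 exception, since the 4 called between stages 12 and 13 ranged from 2, without stage 12 embryo D, to 5 when each embryo was left out in turn. Directions turned only for changes that were not called. For Wnt2 between stages 10 and 12 the log2 change was 0.28 with the title letter as a replicate block (edgeR adjusted p = 0.331), and -0.13 to 0.10 with single embryos left out. For fz between stages 8 and 10 it was 0.0073 with DESeq2 size factors, 0.0079 in the DESeq2 test, and -0.10 to 0.0028 with single embryos left out. For fz between stages 12 and 13 it ran from -0.14 to 0.053, the latter without stage 12 embryo G. For fz between stages 4 and 15 it was -0.0065 without the non-directional libraries, and -0.048 to 0.043 with single embryos left out. For wntD between stages 4 and 15 it ran from -1.79 to 0.42, the latter without stage 4 embryo H, and the DESeq2 test called it at -1.41 (adjusted p = 0.0368). The causes were not tested. The title letter as a replicate block turned no other direction and changed no call. Same-letter embryos of neighbouring stages gave r from -0.301 to 0.286 over 38 pairs, 14 of them over 0.1. Pairs with different letters were not set beside them, so these values cannot show whether letters pair samples. Letters A, B, F and G mark the non-directional libraries at both stage 13 and stage 15. Of the log2 changes of members, 442 kept their direction and call under the alternatives other than leaving out an embryo, 5 lost the call, 4 gained it and 4 turned. With an embryo left out 3427 kept both, 7 lost the call, 2 gained it and 20 turned. Counts of pathway genes called stayed within 1.5 times in all. Of 216 levels, 9 moved by more than 1 SD. Depth limits Wnt10 in all stages, Wnt6 up to stage 10, and Wnt2 and Wnt4 before stage 8, where stages hold few reads. It also limits wntD at stages 4, 13 and 15, which hold 24, 17 and 11 reads.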
